A study of Mus musculus with 2 samples.

Results

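The matrix metalloproteinases (Mmp), the Adamts proteases and their inhibitors, the Timps, were described in the skin of newborn mice with and without Pla2g4e. Members were chosen by a rule on names, set with earlier results of these data known. It took array probes outside the controls whose gene name was Mmp, Timp or Adamts followed by a number and an optional letter. Mmp8, Mmp9 and the Adamts-like genes were left out, and Mmp8 and Mmp9 were both higher in the knockout, as given below. This gave 44 genes of the 24288 named on the array: 21 Mmp, 19 Adamts and 4 Timp genes, read by 62 probes. Of these genes, 26 had 1 probe and 18 had 2.

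The study compared skin RNA of Pla2g4e-/- mice of the strain C57BL/6N with that of Pla2g4e+/+ mice of the same strain, both at postnatal day 0. Each genotype was 1 array, and each array held a pool of equal parts of skin RNA from 5 animals. With 1 array a genotype there was no replicate, so differences are described by size and without any test. Pooling averages the animals and leaves their spread unknown, and in whole skin fewer cells of a type and less RNA per cell cannot be told apart.

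Matrix metalloproteinases are zinc proteases that cut collagens, other matrix proteins and signalling molecules, and most are secreted as inactive precursors. The Timps bind their active sites and block them. Adamts proteases are secreted relatives with thrombospondin repeats that trim procollagens and cleave proteoglycans such as versican and aggrecan. In skin these enzymes are known from dermal remodelling, hair growth, wound closure and inflammation.

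The probe that stands for Pla2g4e read 662 in wild type and 319.6 in the knockout. The labels do not give the deleted part, so this reading checks the genotype only in part. The Y-linked genes Ddx3y, Eif2s3y, Kdm5d and Uty passed the background mark only in wild type. Eif2s3y read 5363 in wild type and 6.35 in the knockout, and Ddx3y 2893 and 2.36. Xist, the transcript that coats the silenced X chromosome, read 796 against 2889, a scaled difference of 1.95 log2. The labels do not give the sex of the animals. By these readings the wild-type pool held male RNA and the knockout pool none that passed the background mark, while Xist passed it in both pools. RNA of sex-linked genes thus differed between the pools along with genotype. With 1 array a genotype, the part of sex in any difference below cannot be told apart from that of genotype. The median reading over probes was 223 in wild type and 216 in the knockout, and 78.0% and 80.8% of probes were well above background.

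Of the 44 members, 36 had a probe well above background on both arrays, against 79.9% of all named genes. These are called measured below. Another 4 (Mmp16, Mmp20, Mmp28 and Adamts3) passed that mark in the knockout pool alone, 0 in the wild-type pool alone, and 4 (Mmp1a, Mmp1b, Mmp21 and Mmp25) in neither. Readings are background-subtracted spot brightness in arbitrary units, unscaled. A reading depends on the probe as well as on the RNA, so a difference was always taken between the arrays for 1 probe. Readings of different probes were compared only to pick the brightest probe of a gene, to sort genes into brighter and dimmer and to sum marker lists. None of these uses orders one gene's RNA above another's.

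**Figure D1:**
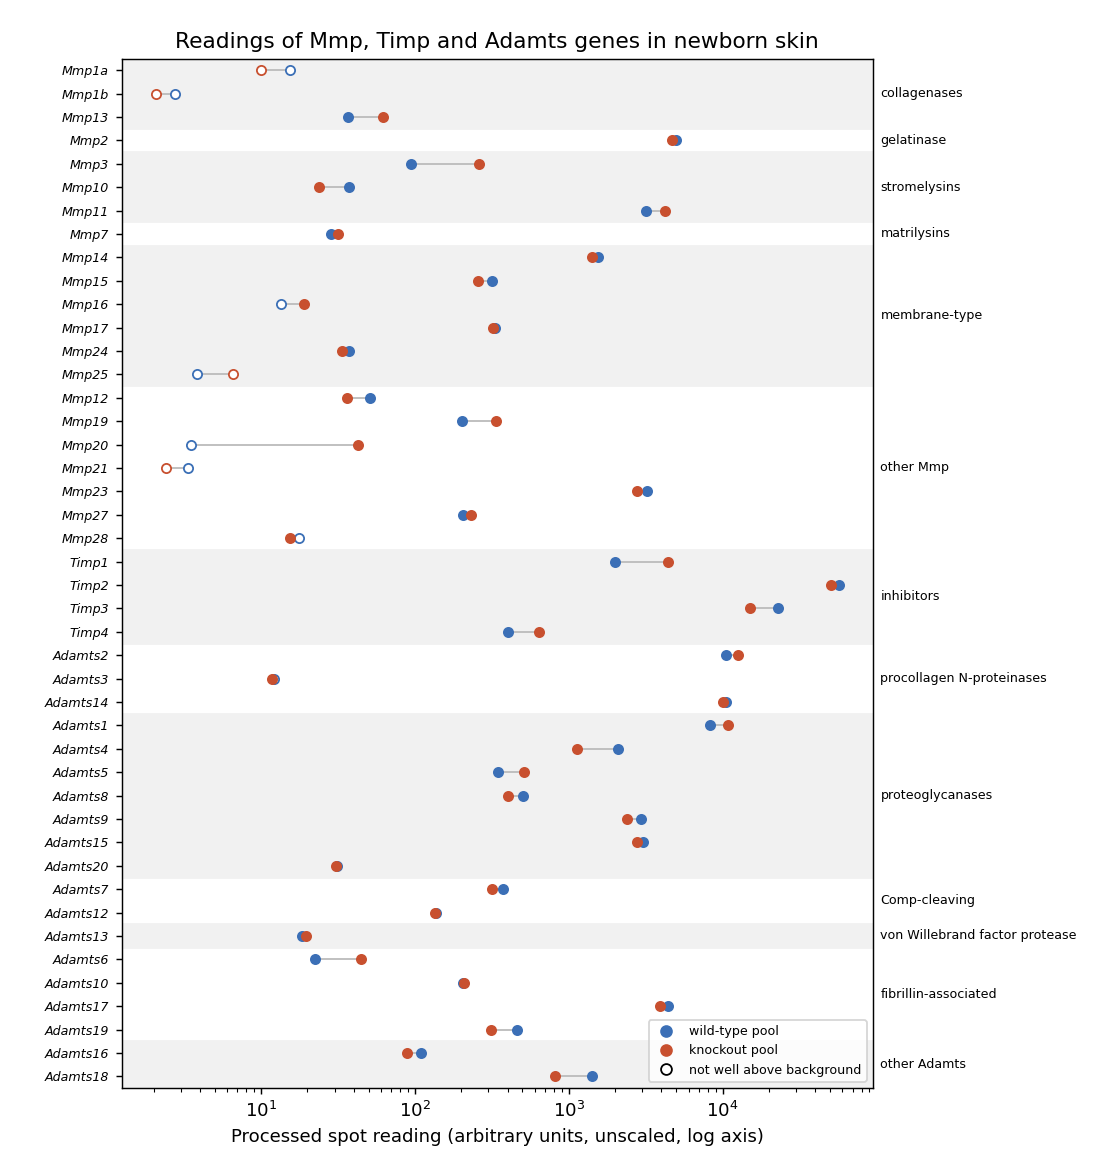
Processed readings of the 44 members on a log axis, 1 row a gene, grouped by role, with the wild-type pool in blue and the knockout pool in red (1 array each, unscaled). Open circles were not well above background. Mmp3 and Timp1 show the pools clearly apart, while the readings of Mmp2 and Adamts14 nearly coincide.

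The middle of the members lay where that of all genes lay. A difference here is knockout minus wild type on the scaled log2 scale. The median difference was 0.01 log2 over the 36 measured members and 0.01 over all 19397 measured genes, with 18 members above 0 and 18 below. In the knockout, 7 of 36 members were at least 1.5-fold higher, beside 6.74% of all measured genes. At least 1.5-fold lower were 2 of 36, where 4.5% of all were. At 2-fold, 3 members were higher and 0 lower, beside 2.23% and 1.44% of all genes. The 7 higher members were Mmp3, Timp1, Adamts6, Mmp13, Mmp19, Timp4 and Adamts5, and the 2 lower were Adamts4 and Adamts18. Without scaling the arrays, 6 members were higher and 4 lower, since Adamts5 left the higher and Mmp10 and Timp3 joined the lower, and 5.16% of all genes were higher and 6.12% lower.

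The higher members came mostly from dim probes. Of the 15 members whose signal was above the median of measured genes, Timp1 was the 1 higher and Adamts4 and Adamts18 the 2 lower, while 4.11% of such genes were higher and 2.43% lower. Of the 21 dimmer members, 6 were higher and 0 lower, while 9.37% of dimmer genes were higher and 6.56% lower. The scanner software's own error for a difference was 0.20 log2 in the median member and at most 0.35, for Adamts13. A difference of more than 2 such errors was seen in 14 of 36 members (38.9%), and in 19.0% of all measured genes. That error describes spots and leaves out the animals.

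**Figure D2:**
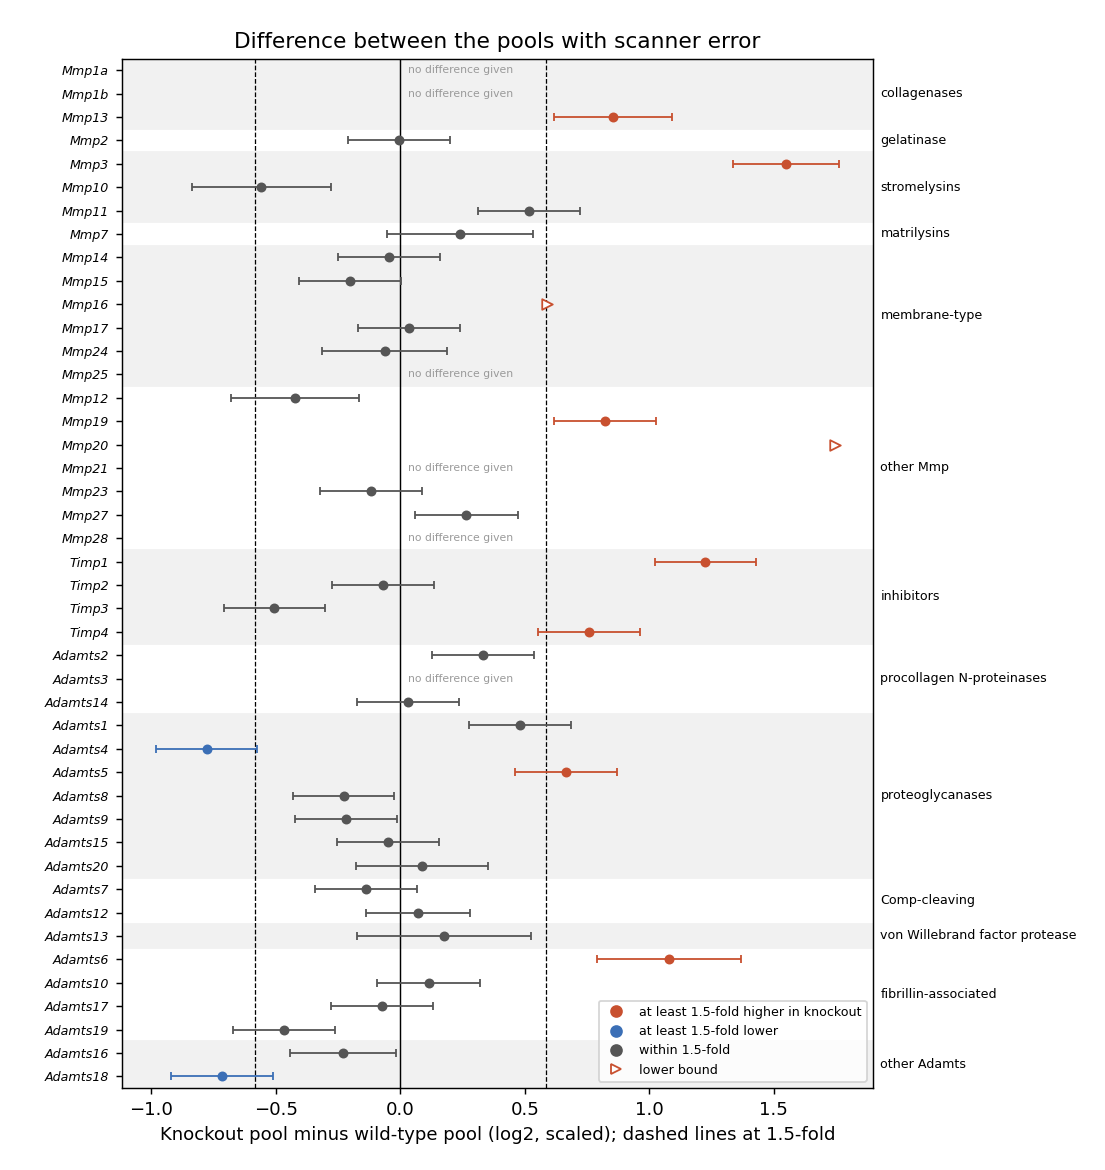
Knockout minus wild type on the scaled log2 scale for the 44 members, 1 row a gene, with bars of 1 scanner error either way and dashed lines at 1.5-fold. Red points are the 7 higher members and blue the 2 lower. Open triangles are the approximate lower bounds of Mmp16 and Mmp20, drawn without bars.

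**Figure D3:**
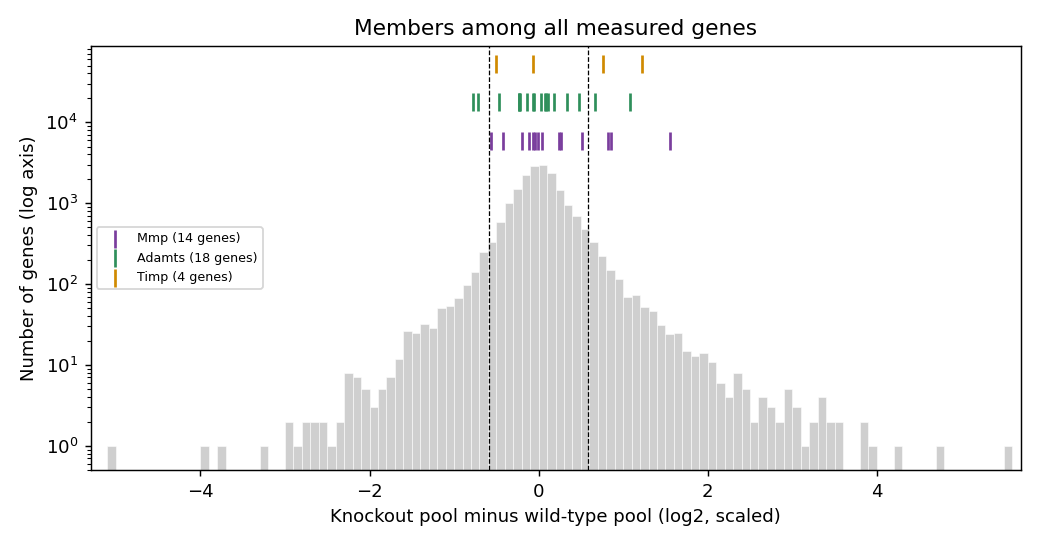
Number of measured genes (log axis) by knockout minus wild type in bins of 0.1 log2, with a tick for each of 14 Mmp, 18 Adamts and 4 Timp genes. The ticks spread around 0 with the other genes, and Mmp3 at 1.55 is the rightmost.

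Mmp3 showed the largest difference of any measured member with the scanner's background correction, while with normexp Timp1 (1.18 log2) ranked above it (1.15). Mmp3 is stromelysin-1, which cleaves proteoglycans and fibronectin and activates other Mmp precursors. Its probe, at mm9 chromosome 9, 7455751 to 7455810, read 94.8 in wild type and 260.4 in the knockout, a difference of 1.55 ± 0.21 log2 (scanner error) or 2.93-fold. Only 0.763% of all measured genes had a difference as high. The other stromelysins did not share this size. Mmp10, stromelysin-2, which keratinocytes make at wound edges, read 37.1 and 23.7, a difference of -0.56 ± 0.28. Mmp11, stromelysin-3, made by stromal cells, read 3158 and 4242 with its brighter probe, a difference of 0.52 ± 0.20. Its other probe read 1547 and 1797 (0.31 ± 0.20). By the brightest probe of each gene, Mmp10 and Mmp11 were the members nearest to 1.5-fold on the inside, below and above 0.

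Among the collagenases, which open the triple helix of fibrillar collagen, 1 of 3 was measured. Mmp13, collagenase-3, read 36.6 in wild type and 62.1 in the knockout, a difference of 0.85 ± 0.24 or 1.81-fold. With the normexp background correction in place of the scanner's it was 0.53 log2, within 1.5-fold. The interstitial collagenases Mmp1a (15.5 and 10.05) and Mmp1b (2.75 and 2.06) were not well above background in either pool, so no fold is given. Mmp2, the gelatinase that dermal fibroblasts make, read 4980 and 4661, a difference of -0.0044 ± 0.20. Mmp14, the membrane protease that activates Mmp2, read 1554 and 1414 (-0.04 ± 0.20). The RNA readings of this activator and its substrate were thus level between the pools to within 1 scanner error, and the enzymes themselves were not measured.

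The other membrane-type members were level or dim. Mmp15 differed by -0.20 log2, Mmp17 by 0.03 and the brighter probe of Mmp24 by -0.06. The other probe of Mmp24 passed the background mark only in the knockout, at 16.2 in wild type and 32.2 in the knockout. Against its own wild-type reading it was 2.11-fold higher there (1.08 ± 0.39 log2), so the 2 probes of that gene disagreed. Mmp16 read 13.4 and 19.1, close to the background, and was higher in the knockout by a bound that just reached 1.5-fold (0.59 log2). The scanner error of its difference was 0.44 log2. Mmp25, a protease of leukocytes, read 3.83 and 6.55 and was not well above background in either pool.

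Of the remaining Mmp genes, Mmp19 was higher. Mmp19, which cleaves basement membrane proteins, read 203.6 in wild type and 338 in the knockout, a difference of 0.82 ± 0.21 or 1.77-fold. Mmp12, the elastase of macrophages, read 51.2 and 35.9 (-0.42 ± 0.26), and Mmp7, matrilysin, read 28.6 and 31.7 (0.24 ± 0.29). Mmp23 read 3217 and 2785 (-0.12 ± 0.20), and Mmp27 read 204.7 and 231 (0.27 ± 0.21). Mmp20, the enamel protease enamelysin, read 3.47 in the wild-type pool, below the background mark, and 42.6 in the knockout pool. That is at least 3.35-fold higher by its bound, where the scanner error of the difference was 1.445 log2. Both readings came from 1 spot on each array, and the lowest reading well above background was 13.5 on the wild-type array. Mmp28, an epidermal Mmp also called epilysin, read 17.7 and 15.4 with its brighter probe and 15.9 and 15.6 with the other. Mmp21 read 3.34 and 2.39 and 2.77 and 2.01 with its 2 probes, below the mark in both pools.

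Together 9 of the 21 Mmp genes lie in 1 cluster on chromosome 9, with the left-out Mmp8 among them, over 415 kb between the outermost probes. Of the 9, 6 were measured, all dimmer than the median measured gene, and they lay on both sides of 0. In order along the chromosome, Mmp13 (0.85 ± 0.24) was higher and Mmp12 (-0.42 ± 0.26) below 0. Mmp3 (1.55 ± 0.21) was higher and Mmp10 (-0.56 ± 0.28) below 0. Mmp27 (0.27 ± 0.21) and Mmp7 (0.24 ± 0.29) stood at the far end. Only Mmp13 and Mmp3 of these were past 1.5-fold. Mmp8, a collagenase of neutrophils, read 21.6 and 119.5, a difference of 2.56 log2. Mmp9, the other left-out gene, read 6.76 and 19.1 as the mean of 9 spots and was at least 1.47-fold higher in the knockout.

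**Figure D4:**
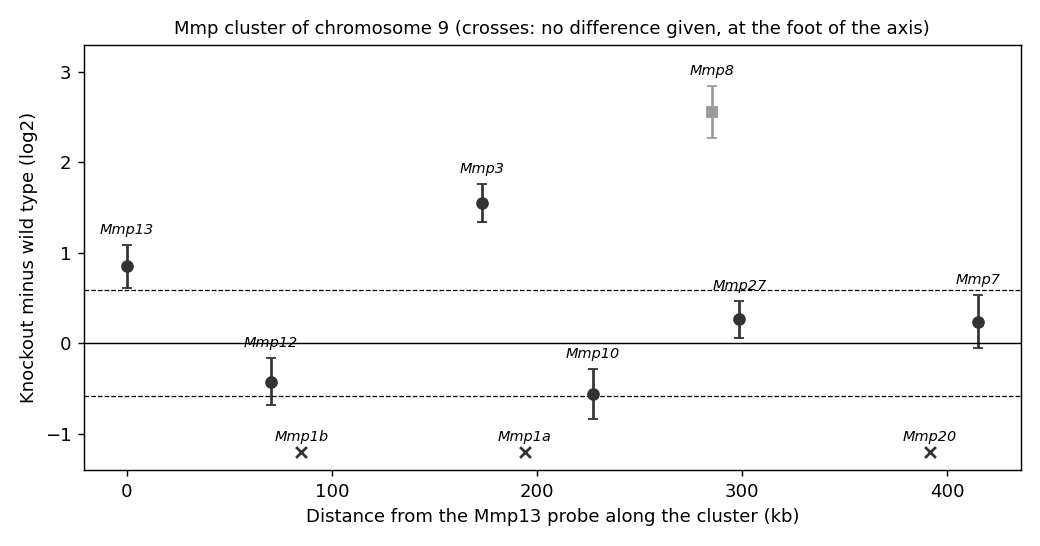
Knockout minus wild type (log2, bars of 1 scanner error) against the distance in kb from the Mmp13 probe for the genes of the chromosome 9 cluster. Circles are members, the grey square is Mmp8, which was left out by the rule, and crosses at the foot are genes with no difference given. Mmp12 and Mmp10 lie below 0 and the other 4 measured members above it.

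The promoters of the cluster share a short word that the choice of members did not use. The motif TGANTCA, the core of the binding site of AP-1 (Fos and Jun dimers), reads the same on both strands and was searched in the 250 bases before each start in RefSeq promoters of the assembly GRCm38.p6, which held 31 of the 44 members. It was found in 8 of the 9 cluster members, all but Mmp27, and in 0 of the 22 other members with a promoter. Mmp12 and Mmp7 each have another start in the table whose 250 bases do not hold it, and the start that does is shown. Over all genes with a promoter in that table, 7.82% held it. In the 8 members its first base lay between 95 and 35 bases before the start. The 120 bases before the start are shown 5′ to 3′ on the gene's strand, in cluster order with Mmp27 last, so that the shared word can be seen in its place, and capitals mark the motif.
Mmp13 (chr9:7272394-7272513, + strand): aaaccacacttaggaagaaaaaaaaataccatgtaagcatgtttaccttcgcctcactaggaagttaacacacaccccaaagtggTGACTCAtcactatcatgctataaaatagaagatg
Mmp12 (chr9:7347254-7347373, + strand): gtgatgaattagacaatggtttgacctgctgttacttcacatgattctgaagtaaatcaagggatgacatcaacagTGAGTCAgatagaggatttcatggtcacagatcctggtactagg
Mmp1b (chr9:7388027-7388146, - strand): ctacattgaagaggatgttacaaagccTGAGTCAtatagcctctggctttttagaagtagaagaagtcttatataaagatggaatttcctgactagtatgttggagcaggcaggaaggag
Mmp3 (chr9:7445702-7445821, + strand): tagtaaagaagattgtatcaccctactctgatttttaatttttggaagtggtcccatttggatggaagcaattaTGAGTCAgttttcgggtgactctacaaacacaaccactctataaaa
Mmp1a (chr9:7464021-7464140, + strand): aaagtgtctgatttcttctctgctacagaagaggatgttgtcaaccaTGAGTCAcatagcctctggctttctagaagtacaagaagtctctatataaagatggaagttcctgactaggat
Mmp10 (chr9:7502222-7502341, + strand): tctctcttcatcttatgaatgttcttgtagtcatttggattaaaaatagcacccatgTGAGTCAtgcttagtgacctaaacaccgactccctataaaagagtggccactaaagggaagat
Mmp20 (chr9:7628111-7628230, + strand): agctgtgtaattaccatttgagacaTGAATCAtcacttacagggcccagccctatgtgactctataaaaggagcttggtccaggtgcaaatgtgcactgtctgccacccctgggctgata
Mmp7 (chr9:7691970-7692089, + strand): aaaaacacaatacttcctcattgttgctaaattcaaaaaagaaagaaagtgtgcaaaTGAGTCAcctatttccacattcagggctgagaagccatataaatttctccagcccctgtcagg
Mmp27 (chr9:7571276-7571395, + strand): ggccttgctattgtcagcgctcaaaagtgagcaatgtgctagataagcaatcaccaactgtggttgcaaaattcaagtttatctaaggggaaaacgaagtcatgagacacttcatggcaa

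Whether holding the motif goes with a difference between the pools was not tested. Of the 8 genes above with capitals, Mmp3 and Mmp13 were at least 1.5-fold higher. Mmp7 (0.24 ± 0.29 log2), Mmp12 (-0.42 ± 0.26) and Mmp10 (-0.56 ± 0.28) lay within 1.5-fold. All of these were dimmer than the median measured gene. Mmp1a and Mmp1b passed the background mark on neither array. Mmp20 passed it in the knockout pool alone, at least 3.35-fold higher by its bound. Of the 4 members at least 1.5-fold higher that had a promoter in the table, Timp1 and Timp4 did not hold the motif. A match of letters is a description and not a bound site.

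The Timps split both ways. Timp1, a secreted inhibitor of most Mmp enzymes that is induced in many inflamed tissues, read 2006 in wild type and 4405 in the knockout. That is a difference of 1.23 ± 0.20 log2 or 2.34-fold, and 1.40% of all measured genes were as high. Its probe lies on chromosome X, at mm9 20451802 to 20451861. The 659 measured genes with a probe on that chromosome had a median difference of 0.05 log2, 6.98% of them were at least 1.5-fold higher, and 8 including Timp1 were as high as Timp1.

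Timp4, an inhibitor with a narrower range of tissues, read 400.4 and 637, a difference of 0.76 ± 0.20 or 1.69-fold. Timp3, which stays bound to the matrix and also blocks Adamts proteases, was lower, at 22931 in wild type and 15169 in the knockout (-0.50 ± 0.20). Timp2, which takes part in the activation of Mmp2, read 56885 and 50886 with its brighter probe (-0.07 ± 0.20) and 3508 and 3272 with the other (-0.01 ± 0.20). Timp3 and Timp4 differed in opposite directions by more than 2 scanner errors each, while both Timp2 probes stayed within 1.

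Among the proteoglycanases, Adamts4 and Adamts5, both known as aggrecanases, differed in opposite directions. Adamts4 read 2076 in wild type and 1137 in the knockout, at mm9 chromosome 1, 173189952 to 173190011, a difference of -0.78 ± 0.20 or 1.71-fold lower. It was the lowest of the 36 measured members, and 2.41% of all measured genes were as low. Adamts5 read 346 and 515 with its brighter probe (0.67 ± 0.20, 1.59-fold higher) and 254 and 335 with the other (0.49 ± 0.21). With both probes averaged, Adamts5 was within 1.5-fold.

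The other proteoglycanases differed less. Adamts1, a versican protease, read 8287 and 10854 (0.48 ± 0.20). Adamts1 and Adamts5 are neighbours on chromosome 16, with probes 63.4 kb apart, and both were higher. Adamts15 (3050 and 2766, -0.05 ± 0.20) and Adamts8 (505 and 405, -0.23 ± 0.20), neighbours on chromosome 9 at 63.4 kb, were level or slightly lower. Adamts9 read 2941 and 2375 (-0.22 ± 0.20), and Adamts20, which mice need for their belly pigment, read 30.9 in both pools (0.09 ± 0.27).

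Adamts18 was lower with both of its probes. The brighter probe, at mm9 chromosome 8, 116368682 to 116368741, read 1412 in wild type and 807 in the knockout, a difference of -0.72 ± 0.20 or 1.64-fold lower. The other probe, at 116222720 to 116222779, read 1188 and 813 (-0.46 ± 0.20). Adamts16, its closest relative, read 110.1 and 88.3 (-0.23 ± 0.21).

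Adamts6 was the highest of the Adamts genes with the scanner's background correction, from a dim probe. It read 22.4 in wild type and 44.5 in the knockout, a difference of 1.08 ± 0.29 or 2.11-fold. With the normexp background correction in place of the scanner's, its difference was 0.49 log2, within 1.5-fold and below that of Adamts5 (0.61). Adamts10, its close relative, which binds fibrillin, read 205.1 and 208.5 (0.11 ± 0.21), so the 2 genes did not share the size. Adamts17, grouped with them, read 4406 and 3935 (-0.07 ± 0.20).

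Adamts19 had the most repeated reading, since its probe was printed 10 times. The spots, unscaled, read from 448 to 465 with a median of 458 in wild type and from 289.8 to 335 with a median of 312 in the knockout. The difference was -0.47 log2, with an SD over spots of 0.070 (n = 10 spots of 1 array pair). Over 332 measured probes with repeated spots, the median of that SD was 0.037. Spots share the RNA of 1 pool and say nothing of the spread among animals.

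The procollagen N-proteinases, which trim fibrillar procollagens before they assemble, were level or slightly higher. Adamts2, the main such enzyme of skin, read 10568 and 12500 (0.33 ± 0.20) with 1 probe and 73.5 and 86.3 (0.32 ± 0.21) with the other. Adamts14 read 10506 and 10079 (0.03 ± 0.20), and Adamts3 passed the background mark in the knockout pool alone, at 12.1 and 11.8. Adamts7 (371 and 316, -0.14) and Adamts12 (138 and 136, 0.07), which cleave Comp, and Adamts13, the protease of von Willebrand factor (18.3 and 19.4, 0.18), lay within 1.5-fold.

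Where a member had 2 measured probes, they mostly gave like values. This was so for 10 genes, and the gap between the probes was 0.12 log2 in the median, against 0.13 over the 5163 genes of the array with several measured probes. Adamts8 was the 1 of 10 whose probes differed in sign, where 26.8% of such genes did, and its dimmer probe read 69.9 and 72.3 (0.14 ± 0.23). The widest gap was that of Adamts12 (0.07 and 0.50).

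**Figure D5:**
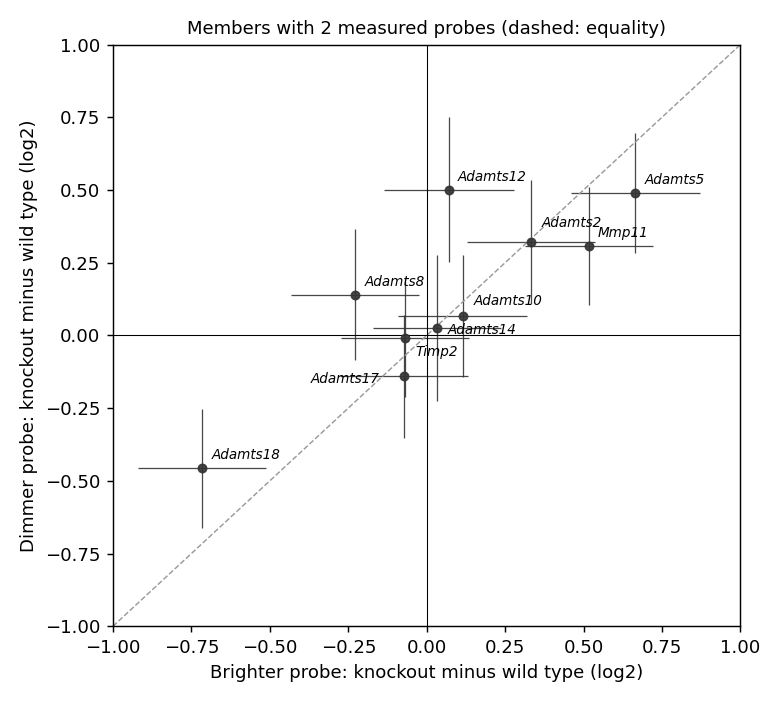
Knockout minus wild type (log2, bars of 1 scanner error) by the brighter probe (horizontal axis) and the dimmer probe (vertical axis) of the 10 members with 2 measured probes. Points near the dashed line have probes that give the same value, and Adamts8 and Adamts12 lie farthest from it.

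Genes that work beside the members were counted from lists. Of 24 measured regulators and partner proteases, 2 were at least 1.5-fold higher and 0 lower, with a median of 0.14 log2. Highest was Adam8, a membrane protease of leukocytes, which read 2790 in wild type and 6497 in the knockout (1.31 ± 0.20). Lowest were the convertase Pcsk6 (-0.28) and Plat, the tissue plasminogen activator (-0.25), while Reck, a membrane inhibitor of Mmp enzymes, stood at 0.29.

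Of the Adamts-like genes, which lack the protease domain, 4 of 6 measured were at least 1.5-fold higher and 0 lower, with a median of 0.64 log2. They were Adamtsl2 (1.12), Papln (0.66), Adamtsl4 (0.64) and Adamtsl1 (0.64), and Adamtsl5 (-0.18) was lowest. Of 20 measured substrates, Vwf was the 1 higher (0.64) and Bcan, brevican, the 1 lower (-0.61), with a median of 0.10. The main skin collagens Col1a1 (0.11) and Col3a1 (0.11) and the proteoglycan Vcan (0.08) were level.

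Markers of the cells that whole skin holds differed beside these genes, and their part in the members' differences was not tested. Of 8 fibroblast markers 0 were past 1.5-fold (median 0.07), and their summed reading was 715522 in wild type and 705198 in the knockout. Of 6 endothelial markers 4 were higher and 0 lower (median 0.68, summed readings 11806 and 15220.4). Of 8 neutrophil markers 5 were higher and 1 lower (median 1.09, summed readings 7808 and 24354). Most of that sum came from S100a9 (3357 and 16197) and S100a8 (1631 and 6160), and RNA of whole skin does not tell which cells held them. The other higher ones were dim: Cxcr2 (22.4 and 79.6), Ngp (57.2 and 107.6) and Ltf (56.9 and 121.5). Mpo (42.0 and 57.3) lay within 1.5-fold. The lower one was Camp, at 1857 and 869 with its brighter probe and 817 and 380 with the other, and Elane was level (785 and 762). Hair follicle markers stood at a median of -0.62 with 4 of 8 lower and 0 higher (summed readings 191932 and 125973). Macrophage markers had 1 of 5 higher (median 0.27, summed readings 37646 and 37965), adipocyte markers 2 of 4 lower (-0.37, summed readings 151813 and 124273), and skeletal muscle markers 2 of 6 higher (0.42, summed readings 502816 and 604279). Basal and suprabasal keratinocyte markers had 0 past 1.5-fold among 4 and 3 measured, with medians of 0.13 and 0.11. Cartilage and bone markers were dim, with 1 higher and 1 lower of 4 measured, and Col10a1 and Matn1 were not measured.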

How the data were processed

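RNA of whole newborn skin was read on 1-colour Agilent arrays, 1 array a genotype, from 200.0 ng of pooled RNA of 5 animals each, per the labels. The deposited scanner files hold spot intensity, made with Agilent Feature Extraction 11.5.1.1 per the submitters' processing notes, with the background already subtracted per the file headers. The value table that the authors deposited was treated as a ratio, since its values were the processed intensity divided by 1 constant per array (2406 and 2273), and served as an alternative.

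Of 43020 spots outside the controls, 234 outlier spots were left out. Spots of a probe were averaged, each array was divided by the 75th percentile of its processed intensity, and log2 was taken. Where several probes of a gene passed the background mark on both arrays, the brightest stands for it. The scanner error combines the software's error of both intensities. Where a probe was well above background in 1 pool alone, its fold was taken against the higher of the probe's own reading and the lowest reading above background. It is called a lower bound where that lowest reading was the higher. Some probes with a wild-type reading above that lowest one failed the mark, such as that of Mmp1a at 15.5, so the bound is approximate. With 1 array a genotype no test was possible, and differences are called by size alone. Alternatives covered scaling, background correction (normexp with offset 50 in limma 3.58.1, R 4.3.3), choice of probe, dim probes and outlier spots. Other steps ran in Python 3.11.15, and the code that makes the calls was checked on simulated data.

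Genes were named through RefSeq accessions and symbols: 28326 probes by accession, 2204 by symbol, 174 by synonym and 1767 by the file's own name, with 6951 unnamed. Probe positions are those of the files (mm9), and RefSeq promoters are on another assembly, so the coordinates were not combined. Both readings, the difference and the error are given for members at least 1.5-fold apart, those brighter than the median measured gene, those above background in 1 pool with a bound of at least 1.5-fold, and those whose probes differ in sign. For members with a bound, the bound stands in place of the difference, beside the scanner error of the difference without a bound. Other members are added to complete the account, and of the other lists mainly the 2 highest and 2 lowest genes are named. The members and lists were chosen with earlier results of these data known. One gene of the list of regulators and partner proteases is counted there but not reported here.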

Additional observations from a re-analysis of the deposited data

How the results depend on the processing

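With 1 pool a genotype, the spread among animals is unknown and no difference could be set against it. Several alternatives could move the value of a named member little or not at all. Members had 0 outlier spots. With brighter genes only, or with probes above background on at least 1 array, the probe of each named member stayed the same. Scalings by 1 constant shift all genes alike, here by less than the scanner error. The count that follows is thus partly set by the choice of alternatives. Of 213 alternative values for 22 named members, 210 stayed within the scanner error, among them 3 sign changes close to 0 (Adamts14 at -0.02 with median scaling and -0.06 without scaling, Mmp2 at 0.0014 with quantile normalization). The other 3 moved, all with the normexp background correction: Mmp3 (1.15 log2), Mmp13 (0.53) and Adamts6 (0.49). The offset of 50 in that correction is added to every reading, which by arithmetic shrinks the difference of a dim probe. The share of each move that the offset makes was not tested. That correction left 5 members at least 1.5-fold higher, and gave 855 higher and 422 lower over all genes, against 1308 and 872. With brighter genes only, 15 members were measured, 1 was higher, and the median of the Timp genes was -0.0695 log2 in place of 0.35, since fewer genes were counted. At 2-fold, 3 members were higher and 0 lower. Without scaling, 4 were lower. The median of all genes was then -0.08 log2, against 0.01. Adamts4 and Adamts18 were among the lower members in every alternative but the 2-fold one. With probes averaged, Adamts18 was only just past 1.5-fold (-0.586 log2). Mmp10 joined the lower members with median scaling and with quantile normalization (3 lower each). Dim probes such as those of Adamts6, Mmp10, Mmp12, Mmp13, Mmp16 and Mmp20 lie close to the background, which limits their folds.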
